A study of Mus musculus with 43 samples.

Results

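The genes described here are 8 enzymes of arginine, urea cycle and nitric oxide metabolism: Cps1, Otc, Ass1, Asl, Arg2, Nos2, Oat and Odc1. They were chosen by symbol, with their responses in these same data already known, and each was found in all 3 expression tables (8 of 23951 gene rows) and among the 54307 gene rows of the 7 single-cell libraries. Their values in these comparisons are therefore given as a description, without a test. The samples are wild-type C57BL/6 mouse intestinal organoids, which are cultured epithelial structures grown from intestinal crypts, and sorted mouse crypt cells. In the bulk RNA-seq, each of 3 conditions received vehicle or TGFB1 (2 ng/mL, from day 6, over 24 h), with 3 libraries per group. Organoids were either never irradiated and harvested at day 7 (D7 non-IR) or irradiated with 4 Gy at day 4 and harvested at day 7 (D7 IR) or day 11 (D11 IR). Vehicle and TGFB1 libraries of D7 IR and D11 IR thus all carry the same earlier irradiation. By the labels the treatment was the same in D11 IR, so those libraries were taken days after it had ended. For D11 IR, "with TGFB1" therefore means earlier treatment, and D11 IR and D7 IR also differ in time since TGFB1. Single-cell RNA-seq covered irradiated day 8 organoids with 1 ng/mL TGFB1 for 6, 15 or 24 h, or with vehicle (called 0 h), with 1 library each. It also covered live Ki67-RFP+ cells sorted from crypts of the proximal small intestine of Mki67tm1.1Cle/J mice, a strain that reports the proliferation marker Ki67 by fluorescence. This crypt set has 1 library from a non-irradiated littermate and 2 libraries from 56 h after 12 Gy to the whole body. The non-irradiated crypts passed a strainer of 70 µm and the irradiated crypts one of 100 µm, so irradiation and strainer cannot be told apart there.

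Arginine, ornithine and citrulline are interconverted by a small set of enzymes, and the epithelium of the small intestine is known for making citrulline, which other organs turn into arginine. In mitochondria, Cps1 makes carbamoyl phosphate from ammonia and bicarbonate, Otc joins it to ornithine to give citrulline, and Oat links ornithine to the glutamate and proline pathways. In the cytosol, Ass1 and Asl turn citrulline into arginine. The mitochondrial arginase Arg2 splits arginine into ornithine and urea, the inducible synthase Nos2 makes nitric oxide from it, and Odc1 turns ornithine into the polyamine putrescine.

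The bulk libraries hold FPKM, a measure scaled by transcript length and sequencing depth, with library sums of 447728 to 621996. Their read depth is unknown. FPKM are per length, so levels of different genes can be set side by side. The single-cell libraries kept 699 to 4283 cells with totals of 1.23e+07 to 3.24e+07 UMIs. Cell markers of epithelium were abundant in the organoids. The 6 mesenchymal markers summed to medians of at most 3.20 FPKM per group and the 3 endothelial markers to at most 0.213 FPKM. Among the 7 immune markers in the tables, Ptprc (CD45) was at most 0.0726 FPKM in any of the 18 libraries. Emr1 (F4/80), looked up apart from these 7, was at most 0.0266 FPKM. Lyz2 (0.215 to 9.27 FPKM), Itgam (0.220 to 1.86 FPKM) and Csf1r (0.0877 to 1.50 FPKM) were above 0 in all 18. The labels do not say whether the replicate libraries came from separate cultures, so p-values measure the spread between these libraries, which may be technical. In bulk samples, fewer cells of a type and less RNA per cell cannot be told apart.

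With TGFB1, Cps1, Otc, Arg2 and Oat were lower in all 3 conditions, Ass1 and Asl were higher at day 7, and Nos2 and Odc1 moved in different directions by condition. By the fit across all genes of a table (limma, Benjamini-Hochberg adjusted p under 0.05), 2 of the 8 genes were called higher and 5 lower in D7 non-IR, where 68.2% of the 11330 genes tested were called (33.3% higher and 34.9% lower). For D7 IR, 3 were called higher and 5 lower, against 75.5% of all genes called (35.8% higher and 39.7% lower). Of these 3, Ass1 averaged 0.634 FPKM with vehicle, and passed the filter of 1 FPKM through the TGFB1 libraries alone. For D11 IR, 1 was called higher and 5 lower, against 63.9% of all genes (32.3% higher and 31.6% lower). The libraries of the groups did not overlap for 8 of the 8 genes in D7 non-IR, 8 in D7 IR and 6 in D11 IR, beside 72.1, 78.2 and 70.0% of all genes. The genes were chosen on these contrasts, so nothing is read from these counts. The median log2 change of the 8 was −1.07, −0.68 and −1.33 in the 3 conditions, and that of all genes tested was −0.02, −0.03 and 0.01. All log2 changes here are of FPKM + 1 and understate the change of genes near 0.

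**Figure D1:**
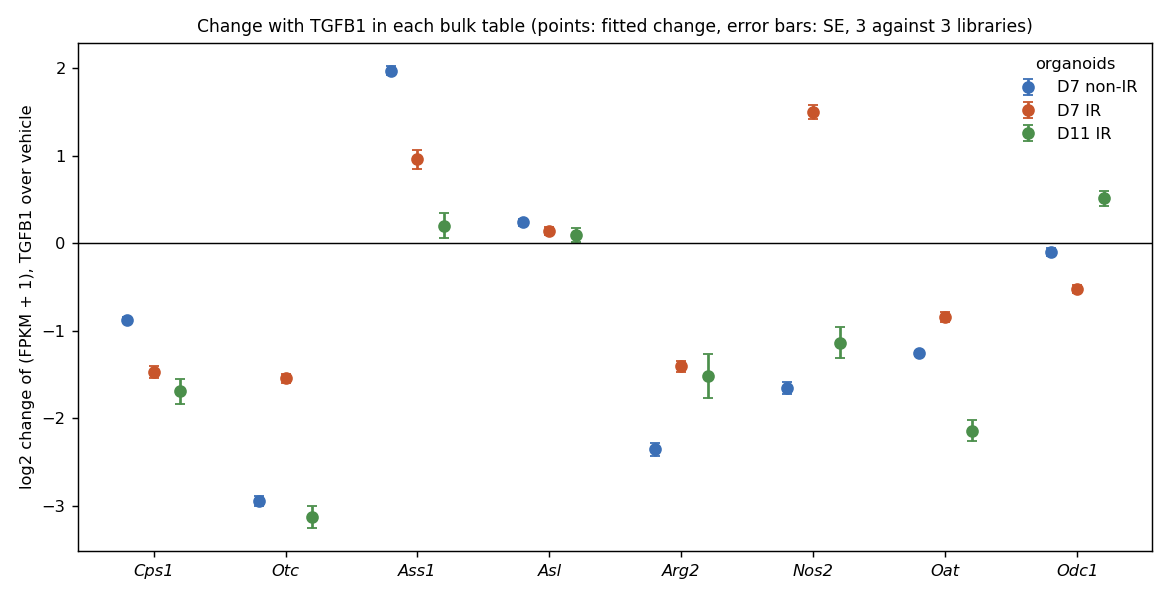
Fitted log2 change of (FPKM + 1) with TGFB1 over vehicle for the 8 genes (horizontal axis), in D7 non-IR (blue), D7 IR (orange) and D11 IR (green) organoids. Points are the fitted changes and error bars their standard errors, from 3 against 3 libraries. Cps1, Otc, Arg2 and Oat lie below 0 in every condition, and Nos2 lies at 1.50 in D7 IR but at −1.65 and −1.14 in the others.

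Cps1, the entry of the cycle and the rate-limiting supplier of carbamoyl phosphate, was among the more abundant of the 8 genes. In D7 non-IR it read 551, 555 and 544 FPKM with vehicle and 297, 297 and 305 FPKM with TGFB1 (log2 change −0.87, SE 0.03). In D7 IR it read 371, 356 and 359.6 FPKM with vehicle and 134, 143 and 114 FPKM with TGFB1 (−1.47, SE 0.07). In D11 IR it read 311, 298 and 242 FPKM with vehicle and 91.0, 98.7 and 71.7 FPKM with TGFB1 (−1.70, SE 0.14). In each condition the 3 TGFB1 libraries lay below the 3 vehicle libraries. Across conditions the order of the 6 group means ran from D7 non-IR vehicle (550.0 ± 5.87 FPKM, SD, n = 3) down to D11 IR with TGFB1 (87.2 ± 13.9 FPKM). In that order, the neighbours D7 non-IR with TGFB1 (299.8 ± 4.70 FPKM) and D11 IR vehicle (284 ± 36.8 FPKM) overlapped. The conditions sit in tables normalized separately, so levels across them carry no test.

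Otc, which makes citrulline, showed the deepest decrease of the 8 genes in both D7 non-IR and D11 IR. In D7 non-IR its levels were 59.6, 57.3 and 59.4 FPKM with vehicle and 6.21, 7.50 and 6.62 FPKM with TGFB1, an 8.67-fold lower mean (log2 change −2.94, SE 0.06). In D11 IR they were 59.2, 53.2 and 60.6 FPKM with vehicle and 6.68, 6.14 and 4.46 FPKM with TGFB1, a 10.0-fold lower mean (−3.13, SE 0.12). In D7 IR the decrease was shallower, from 63.8, 63.5 and 62.0 FPKM to 20.4, 22.7 and 19.8 FPKM, a 3.01-fold lower mean (−1.55, SE 0.05). Vehicle levels were close in the 3 conditions, with means of 57.7 to 63.1 FPKM, so the conditions differed mainly in the TGFB1 libraries. The D7 IR change exceeded the D7 non-IR change by 1.40 (SE 0.08) and the D11 IR change was below that of D7 IR by 1.58 on the log2 scale (SE 0.15). These differences between conditions share the D7 IR libraries, as do all such pairs given here. Otc and Oat are shown with their promoters because they were lower with TGFB1 in all 3 conditions. The Otc promoter window runs from 250 bases before to 50 bases after the RefSeq start (GRCm38.p6, chrX:10252055-10252354, plus strand), and none of the 7 motifs listed further on was found in it.
Otc promoter: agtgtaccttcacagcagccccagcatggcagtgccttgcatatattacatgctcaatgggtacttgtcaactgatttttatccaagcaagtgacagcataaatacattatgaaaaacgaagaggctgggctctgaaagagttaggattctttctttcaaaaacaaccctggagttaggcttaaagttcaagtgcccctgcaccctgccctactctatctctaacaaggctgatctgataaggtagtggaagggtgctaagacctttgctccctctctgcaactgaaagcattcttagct

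Oat, which converts ornithine to the precursor of glutamate and proline and back, was the most abundant of the 8 genes in each group. In D7 non-IR it read 1016, 1016 and 1014 FPKM with vehicle and 443, 412 and 416 FPKM with TGFB1 (log2 change −1.26, SE 0.03). In D7 IR it read 491, 501 and 491 FPKM with vehicle and 283, 295 and 248 FPKM with TGFB1 (−0.84, SE 0.06). In D11 IR it read 876, 876 and 944 FPKM with vehicle and 204, 229 and 179 FPKM with TGFB1, a 4.41-fold lower mean (−2.14, SE 0.12). The 6 group means were separate from each neighbour in the order. The D7 IR vehicle mean was 2.05-fold below that of D7 non-IR without overlap. In the Oat promoter (GRCm38.p6, chr7:132576349-132576648, minus strand, written in the direction of the gene) the capitals mark the TEAD motif GGAATG on the reverse strand, whose first base lies at −221 from the start. This motif occurred in 14.7% of all 32851 promoter windows of the same length.
Oat promoter: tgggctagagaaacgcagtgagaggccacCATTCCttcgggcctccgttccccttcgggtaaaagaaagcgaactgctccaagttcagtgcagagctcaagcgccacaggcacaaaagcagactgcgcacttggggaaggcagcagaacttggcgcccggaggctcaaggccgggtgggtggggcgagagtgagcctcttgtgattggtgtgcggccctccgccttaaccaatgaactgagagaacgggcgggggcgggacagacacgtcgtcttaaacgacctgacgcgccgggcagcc

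Ass1, which condenses citrulline with aspartate, was higher with TGFB1 at day 7. Its D7 non-IR levels were 2.89, 3.10 and 3.31 FPKM with vehicle and 15.0, 15.0 and 15.2 FPKM with TGFB1 (log2 change 1.97, SE 0.05). In D7 IR they were 0.741, 0.491 and 0.670 FPKM with vehicle and 1.77, 2.43 and 2.36 FPKM with TGFB1 (0.96, SE 0.11). In D11 IR they were 0.993, 1.52 and 0.826 FPKM with vehicle and 1.53, 1.59 and 1.12 FPKM with TGFB1, and the groups overlapped (0.20, SE 0.15). The change thus declined from D7 non-IR to D7 IR to D11 IR. These levels are uncertain, because the tables also list Gm5424, a near-identical copy of Ass1 that RefSeq annotates as a transcribed pseudogene, and reads can be split between them. Gm5424 read higher than Ass1 in all 18 libraries, with group means of 23.3 and 116 FPKM (vehicle and TGFB1) without irradiation, 11.7 and 31.6 FPKM in D7 IR, and 15.4 and 17.0 FPKM in D11 IR. Summing both rows gave log2 changes of 2.27, 1.38 and 0.16, with overlapping groups in D11 IR, and this sum was chosen after seeing the data. In the single-cell libraries the placement was the reverse. Gm5424 had UMIs in 27 cells over all 7 libraries, each a fractional value, and in all 27 the Ass1 entry of the same cell was fractional as well. The Ass1 promoter is shown because the gene differed in direction from Otc and Oat (GRCm38.p6, chr2:31470020-31470319, plus strand). Its capitals mark the E-box CACGTG, whose first base lies at −36 and which occurred in 7.15% of all promoter windows.
Ass1 promoter: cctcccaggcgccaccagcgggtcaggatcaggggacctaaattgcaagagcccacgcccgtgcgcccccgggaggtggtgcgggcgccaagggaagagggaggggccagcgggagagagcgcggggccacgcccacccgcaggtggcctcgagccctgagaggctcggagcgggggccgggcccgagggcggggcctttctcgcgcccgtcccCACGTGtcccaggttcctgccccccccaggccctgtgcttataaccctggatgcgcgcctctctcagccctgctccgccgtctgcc

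Asl, which releases arginine and fumarate, varied least of the 8 genes. In D7 non-IR it read 27.5, 29.6 and 29.3 FPKM with vehicle and 33.9, 35.2 and 33.3 FPKM with TGFB1 (log2 change 0.24, SE 0.04). In D7 IR it read 32.6, 32.4 and 33.5 FPKM with vehicle and 34.3, 36.7 and 38.0 FPKM with TGFB1 (0.14, SE 0.05). That call was lost without vehicle replicate 1, vehicle replicate 2, TGFB1 replicate 2 or TGFB1 replicate 3, with log2 changes of 0.14, 0.13, 0.13 and 0.11. In D11 IR the groups overlapped, at 26.3, 31.1 and 29.2 FPKM with vehicle and 29.95, 30.0 and 32.2 FPKM with TGFB1 (0.09, SE 0.08). Its 6 group means spanned 28.8 to 36.3 FPKM.

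Arg2 had group means from 2.36 to 208 FPKM, the widest range of the 8 genes as a ratio, though Oat and Cps1 spanned more FPKM. It read 15.3, 17.5 and 15.7 FPKM in D7 non-IR vehicle, 205, 215 and 205 FPKM in D7 IR vehicle, and 33.3, 40.2 and 58.8 FPKM in D11 IR vehicle. The vehicle mean was 12.9-fold higher in D7 IR than without irradiation, and by day 11 it was 4.71-fold below the D7 IR level. TGFB1 libraries lay below the vehicle libraries in every condition. In D7 non-IR they read 2.32, 2.08 and 2.68 FPKM (log2 change −2.35, SE 0.08), in D7 IR 82.9, 81.1 and 69.9 FPKM (−1.41, SE 0.06), and in D11 IR 15.6, 10.8 and 17.5 FPKM (−1.52, SE 0.25). Irradiated organoids at day 7 therefore held 33.0 times the Arg2 level of non-irradiated organoids when both had TGFB1, and even with TGFB1 each D7 IR library exceeded every vehicle library of the other 2 conditions. The 10 enterocyte markers moved with irradiation as well. Their summed FPKM had a median of 3517 with vehicle and 1624 with TGFB1 without irradiation, 13275 and 19659 in D7 IR, and 4026 and 2259 in D11 IR, with none of the 10 at 0. In D7 IR the sum was higher with TGFB1 while Arg2 was lower. The part of these markers in the Arg2 levels was not tested.

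Nos2, the inducible nitric oxide synthase, changed direction with condition. With vehicle it read 9.60, 10.8 and 10.0 FPKM in D7 non-IR, and with TGFB1 2.44, 2.83 and 2.38 FPKM (log2 change −1.65, SE 0.07). In D7 IR it read 3.69, 4.10 and 4.19 FPKM with vehicle and 12.2, 12.4 and 14.7 FPKM with TGFB1 (1.50, SE 0.08). In D11 IR it read 12.4, 11.8 and 14.7 FPKM with vehicle and 5.10, 7.36 and 3.98 FPKM with TGFB1 (−1.14, SE 0.17). Groups were separate in each condition, and the levels without irradiation and at day 11 resembled each other in order, with vehicle above TGFB1. The TGFB1 change was larger by 3.15 (SE 0.11) in D7 IR than in D7 non-IR, and lower by 2.63 on the log2 scale (SE 0.21) in D11 IR than in D7 IR. The 7 immune markers summed to medians of 2.34 and 1.87 FPKM (vehicle and TGFB1) without irradiation, 4.78 and 11.5 FPKM in D7 IR and 3.06 and 8.09 FPKM in D11 IR, with Lyz2, Itgam and Csf1r above 0 in each library and Ptprc at most 0.0726 FPKM. The 4 villus tip markers summed to 63.1 and 95.5 FPKM, 64.0 and 356 FPKM, and 57.6 and 29.8 FPKM in the same order. Their part in the Nos2 values was not tested.

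Odc1, the first enzyme of polyamine synthesis, moved little in D7 non-IR and in different directions after irradiation. In D7 non-IR it read 32.8, 33.9 and 35.9 FPKM with vehicle and 32.7, 31.2 and 31.6 FPKM with TGFB1 (log2 change −0.10, SE 0.04). This difference was not called, but it was called without vehicle replicate 1 (−0.13), without TGFB1 replicate 1 (−0.12) and after quantile normalization (−0.13). In D7 IR it read 37.7, 38.8 and 38.2 FPKM with vehicle and 25.9, 27.5 and 25.6 FPKM with TGFB1 (−0.52, SE 0.04). In D11 IR it read 29.3, 28.5 and 24.5 FPKM with vehicle and 38.8, 38.9 and 40.5 FPKM with TGFB1 (0.51, SE 0.08). All 3 TGFB1 libraries were thus below vehicle at day 7 after irradiation and above it at day 11, a difference of 1.03 (SE 0.09). The 8 proliferation markers summed to medians of 465 and 174 FPKM (vehicle and TGFB1) in D7 IR and 499 and 486 FPKM in D11 IR. Their part in the Odc1 values was not tested.

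**Figure D2:**
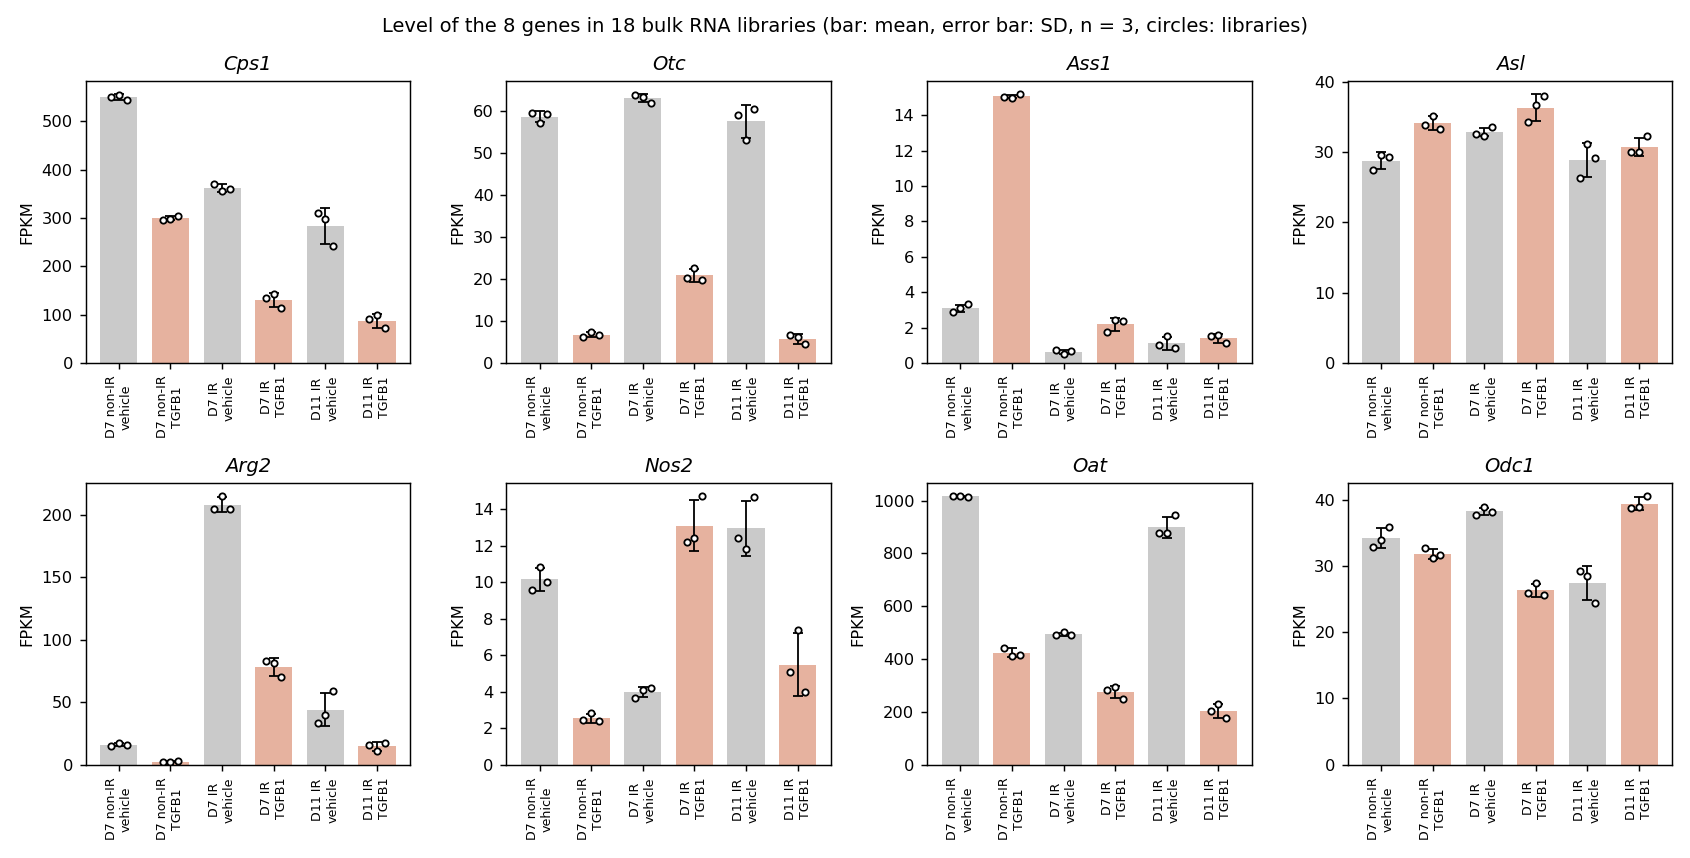
FPKM of each of the 8 genes (1 panel each, linear axis from 0) in the 6 bulk groups, vehicle in grey and TGFB1 in orange. Bars are means, error bars SD over 3 libraries and circles the libraries. Arg2 stands highest in D7 IR vehicle (208 ± 5.88 FPKM), and Nos2 is higher with TGFB1 than with vehicle in D7 IR and lower in the other conditions.

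Set side by side across conditions, without a test, the vehicle level was at least 2-fold higher without overlap in D7 IR than in D7 non-IR for 1 of the 8 genes (Arg2, 8.03% of all genes) and lower for 3 (Ass1, Nos2 and Oat, 7.44%). With TGFB1 it was higher for 3 (Otc, Arg2 and Nos2, 9.73% of all genes) and lower for 2 (Cps1 and Ass1, 8.92%). From day 7 to day 11 after irradiation the vehicle level was at least 2-fold higher for Nos2 (3.51% of all genes) and lower for Arg2 (3.28%). With TGFB1, 0 genes were higher (6.32% of all genes) and 3 were lower (Otc, Arg2 and Nos2, 8.52%). For the shares of all genes, 2-fold was counted on mean FPKM + 1, which is stricter for low genes than the ratio of means used for the 8. Each gene named here was also at least 2-fold apart on that scale. In the vehicle comparison at day 7, Ass1 passed the filter of 1 FPKM through the non-irradiated libraries alone. Condition and table cannot be told apart in these levels.

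Over all 3 conditions, 4 of the 8 genes were called lower each time (Cps1, Otc, Arg2 and Oat) and 0 were called higher each time, while 13.5% and 14.6% of 10823 genes were. In the difference between irradiated and non-irradiated organoids at day 7, 4 of the 8 were called higher and 3 lower, against 53.1% of all genes called (25.3% higher and 27.8% lower). In the difference between days after irradiation, 1 was called higher and 4 lower, against 64.5% of all genes (31.5% higher and 33.0% lower). The genes were chosen on these differences too, and nothing is read from the counts.

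The other genes of these pathways form a list of 52, of which 50 are in the tables, and the list was also chosen with earlier results of these data known. Of 42 tested in D7 non-IR, 12 were called higher and 21 lower with TGFB1. In D7 IR, 14 of 40 were called higher and 20 lower, and in D11 IR 10 of 41 higher and 19 lower. Of all genes, 68.2, 75.5 and 63.9% were called, so most genes of any list are called here. The median log2 changes were −0.09, −0.22 and −0.19, and the list holds genes of opposite roles. Over all 3 conditions, 6 were called higher each time (Arg1, Slc7a6, Ddah1, Gch1, Sat1 and Smox) and 10 lower each time (Nags, Slc25a15, Slc25a13, Prodh, Pycrl, Got2, Pts, Qdpr, Agmat and Gamt). Of 10823 genes, 14.6% were called higher and 13.5% lower each time. Arg1 entered the tests through the TGFB1 libraries alone. Among those called lower in D7 non-IR, Slc7a3 and Gatm entered through the vehicle libraries alone. Slc7a3 read 2.06 and 0.515 FPKM there (vehicle and TGFB1), and Gatm 1.77 and 0.644 FPKM.

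Among the other genes of the urea cycle and its mitochondrial carriers, Nags, Slc25a15 and Slc25a13 fell in all 3 conditions and Arg1 rose. Nags makes the activator that Cps1 requires. It fell from 13.8 to 5.24 FPKM in D7 non-IR (log2 change −1.25, SE 0.07, limma adjusted p 4.34e-08), and by 0.66 and 1.62 on the log2 scale in D7 IR and D11 IR. Slc25a15, the ornithine carrier of the inner membrane, fell from 58.3 to 26.8 FPKM in D7 non-IR, from 70.2 to 51.3 FPKM in D7 IR and from 34.0 to 19.3 FPKM in D11 IR. Its largest limma adjusted p was 4.37e-05. Arg1, the cytosolic arginase, rose from a far lower level than Arg2. Its means were 0.179 and 1.91 FPKM in D7 non-IR, 0.493 and 2.20 FPKM in D7 IR and 0.356 and 1.82 FPKM in D11 IR, with limma adjusted p of at most 3.67e-05.

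Of 12 genes of glutamate, proline and ornithine supply, 1, 1 and 1 were called higher and 9, 8 and 7 lower in the 3 conditions (ordered as above). Of all genes, 33.3, 35.8 and 32.3% were called higher and 34.9, 39.7 and 31.6% lower. Aldh18a1, which makes the common precursor of ornithine and proline from glutamate, fell from 115 to 70.9 FPKM in D7 non-IR (limma adjusted p 1.94e-08) and from 115 to 48.2 FPKM in D11 IR (5.94e-07). In D7 IR it read 119 and 120.0 FPKM, with overlapping groups (limma adjusted p 0.693). Prodh and Pycrl, which oxidise proline and make it, both fell in each condition, Pycrl from 101 to 53.1 FPKM in D7 IR. Glul, glutamine synthetase, fell in D11 IR from 134 to 36.9 FPKM (log2 change −1.84, limma adjusted p 8.33e-08), whereas Aldh4a1, which breaks the same precursor down to glutamate, rose there from 1.54 to 5.02 FPKM (1.24, limma adjusted p 1.21e-05). Got1, an aspartate aminotransferase of the cytosol, fell in both D7 conditions and read 20.6 and 22.0 FPKM in D11 IR (limma adjusted p 0.464).

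For arginine transport, Slc7a1, a main importer of cationic amino acids, fell from 34.7 to 19.9 FPKM in D7 IR (log2 change −0.77, limma adjusted p 4.21e-08) and less in D7 non-IR (−0.25). Slc7a7, the basolateral exporter, rose in D7 non-IR (24.3 to 41.1 FPKM) and D7 IR (72.3 to 91.5 FPKM). Slc3a1, the partner subunit of the apical cystine and cationic amino acid transporter, fell from 74.5 to 34.6 FPKM in D7 non-IR and from 34.7 to 16.6 FPKM in D11 IR, with 74.7 and 73.1 FPKM in D7 IR. The difference of its TGFB1 change between D7 IR and D7 non-IR was 1.06 (SE 0.07, limma adjusted p 1.23e-08). Slc7a2 had group means of 0.0994 to 2.88 FPKM, and of the 3 conditions it was tested in D11 IR alone, where it fell from 2.88 to 0.338 FPKM. It entered that test through the vehicle libraries alone. Its change was lower in D11 IR than in D7 IR by 0.88 on the log2 scale (limma adjusted p 0.000872), a call lost with a pseudocount of 0.1 (0.0901).

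Genes around nitric oxide moved in both directions. Gch1, the first enzyme of synthesis of the nitric oxide synthase cofactor tetrahydrobiopterin, rose from 25.1 to 99.6 FPKM in D7 non-IR, from 10.1 to 53.1 FPKM in D7 IR and from 9.92 to 16.0 FPKM in D11 IR. Its limma adjusted p were 3.58e-11, 6.72e-10 and 0.000182. Pts and Qdpr, which make and recycle the cofactor, fell in each condition, Qdpr from 103 to 57.7 FPKM in D7 IR. Ddah1 and Ddah2, of the family that degrades methylated arginines, rose in D7 non-IR and D7 IR. Ddah2 went from 1.44 to 17.1 FPKM in D7 IR (log2 change 2.90, limma adjusted p 1.72e-09) and from 6.87 to 7.88 FPKM in D11 IR (limma adjusted p 0.260, and 0.0456 without vehicle replicate 3).

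Among polyamine genes, the catabolic enzymes Sat1 and Smox rose in every condition, and the synthase Srm, like Odc1, was lower in D7 IR and higher in D11 IR. Sat1, which acetylates spermidine and spermine, rose from 169 to 438 FPKM, from 37.1 to 230.2 FPKM and from 44.4 to 108 FPKM, with the conditions in the same order. Smox, which oxidises spermine, rose from 15.5 to 113 FPKM, from 12.2 to 70.8 FPKM and from 11.6 to 29.9 FPKM. The limma adjusted p of both were at most 1.17e-05. Srm, spermidine synthase, read 41.5 and 42.4 FPKM in D7 non-IR (limma adjusted p 0.514), fell from 103 to 35.0 FPKM in D7 IR (3.01e-08) and rose from 74.8 to 122 FPKM in D11 IR (5.91e-05). Sms, spermine synthase, fell in D7 IR only among the 3 tests (3.59 to 2.24 FPKM), and its difference between D7 IR and D7 non-IR was −0.49 (limma adjusted p 0.000219). Oaz1, the antizyme that targets Odc1 for degradation, fell in D7 IR from 20.1 to 16.2 FPKM (limma adjusted p 0.00135), and Azin1, which binds antizyme, rose there from 38.3 to 44.7 FPKM (0.00145). In D11 IR Azin1 fell (−0.26, limma adjusted p 0.0277), a call lost without vehicle replicate 1 or without TGFB1 replicate 1 or 3 (0.0550, 0.0808 and 0.0816). Agmat, of the agmatine route to putrescine, fell most in D11 IR, from 38.0 to 6.70 FPKM, as did Gamt of creatine synthesis, from 31.0 to 3.01 FPKM. Amd1 and Amd2 are near-identical copies and are not described.

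**Figure D3:**
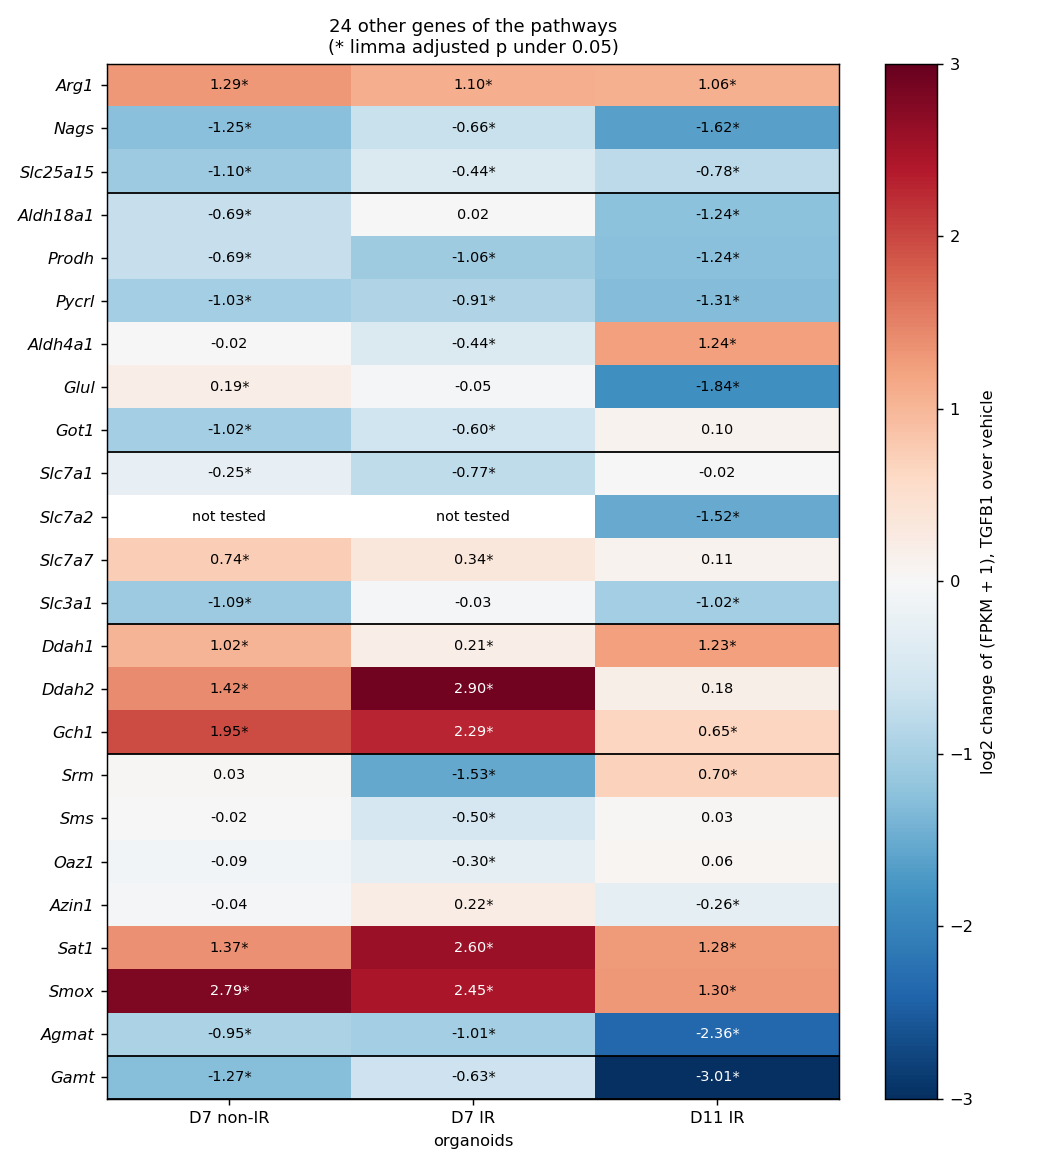
Log2 change of (FPKM + 1) with TGFB1 over vehicle for 24 other genes of the pathways (rows, lines separate urea cycle, glutamate and proline supply, transport, nitric oxide, polyamines and creatine) in the 3 conditions. Asterisks mark limma adjusted p under 0.05. Gch1, Sat1 and Smox are higher throughout, and Srm is lower in D7 IR (−1.53) and higher in D11 IR (0.70).

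In the single-cell time course of irradiated day 8 organoids, the dose was 1 ng/mL and the day differed from the bulk organoids, so values are set side by side only. With 1 library per time there is no test, and the intervals (95%, exact Poisson) cover counting error only. Values are CPM, the UMIs of a gene summed over the kept cells and scaled to the library total. Otc read 144, 128, 92.0 and 63.6 CPM at 0, 6, 15 and 24 h, and was the only 1 of the 6 genes above 10 CPM that was at least 2-fold lower at 24 h than at 0 h (1.78% of 8883 genes were). Cps1 read 636, 808, 726 and 399 CPM, so that it stood above the vehicle level at 6 and 15 h and below it at 24 h. Arg2 read 321, 356, 266 and 171 CPM, and Oat 1040, 934, 917 and 832 CPM. Cps1, Otc, Arg2 and Oat thus read lower at 24 h than at 0 h, as did Odc1, and the share of all genes that read lower was not counted. Odc1 read 185 and 193 CPM at 0 and 6 h and 121 and 122 CPM at 15 and 24 h. Asl read 37.2, 36.9, 48.3 and 56.6 CPM. Ass1 stood at 3.05 CPM (2.43 to 3.78) at 0 h and 8.34 CPM (7.35 to 9.43) at 24 h. Nos2 was sparse, with 57, 19, 65 and 111 UMIs, or 2.08, 0.586, 2.47 and 3.62 CPM. Of the other pathway genes above 10 CPM (35), Gch1, Sat1, Smox and Ddah2 were at least 2-fold higher at 24 h (5.41% of all genes) and Srm at least 2-fold lower. A gene entered if any library compared reached 10 CPM, and Ddah2 (1.50 and 12.7 CPM at 0 and 24 h) and Smox (5.23 and 16.5 CPM) entered through the later time alone, so they had to differ. Gch1 read 27.5, 70.3, 91.8 and 114 CPM over the 4 times, and was already higher at 6 h.

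**Figure D4:**
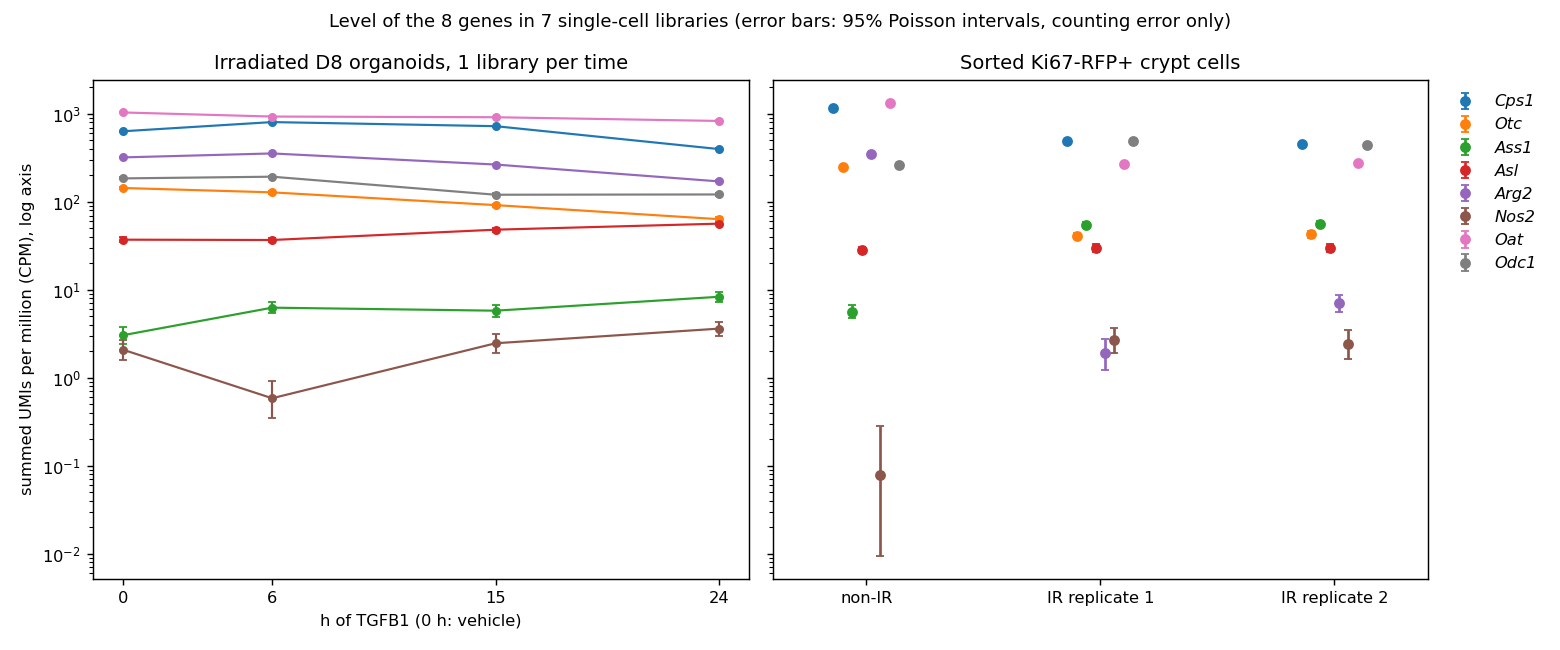
CPM of the 8 genes on a log axis in 4 organoid libraries by hours of TGFB1 (left) and in 3 libraries of sorted Ki67-RFP+ crypt cells (right). Error bars are 95% Poisson intervals for counting error only. Otc runs from 144 to 63.6 CPM over the time course, and Arg2 stands at 352 CPM in non-irradiated and at 1.89 and 7.05 CPM in irradiated crypt cells.

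Cells of each experiment were clustered, and clusters carry a cell name only from listed markers. The cells were clustered on their expression, so levels by cluster are a description. Cps1 was highest in the unnamed cluster 11 (1130.1 CPM, 297 cells), the proliferating-like cluster 1 (1112 CPM, 2026 cells), the unnamed cluster 5 led by replication genes (1079 CPM) and the stem-like cluster 3 (1004 CPM, 1406 cells). Cluster 11 was led by Gm10358 and Gapdh-ps16, and its cells held a median of 0.55 times the median UMIs of their library. Its Cps1 interval (1074 to 1189 CPM) overlapped those of cluster 1 (1098 to 1125) and cluster 5 (1057 to 1102). Cps1 was lower in the enterocyte-like cluster 6 (218 CPM) and the villus tip-like cluster 9 (144 CPM). Arg2 was ordered differently. It reached 756 CPM in the unnamed cluster 0 (2527 cells, led by Slc5a4b, Cyp2b10 and Ces1d). The unnamed clusters 13, 12 and 4 followed at 627, 591 and 578 CPM, above the enterocyte-like cluster (440 CPM) and the stem-like cluster (14.5 CPM). Otc was highest in the unnamed clusters 4 (192 CPM) and 12 (181 CPM), then in cluster 0 (176 CPM), against 33.9 CPM in the stem-like cluster. Oat was highest in the unnamed cluster 4 (1292 CPM). It was at 935 CPM in the stem-like and 1233 CPM in the enterocyte-like cluster, and at 208 and 185 CPM in the regenerative-like cluster 8 and the villus tip-like cluster. Ass1 and Nos2 were each highest in the regenerative-like cluster (453 cells), at 19.2 and 10.3 CPM. For Nos2 the unnamed cluster 7 followed at 6.70 CPM (3.97 to 10.6), whose interval overlapped that of the regenerative-like cluster (8.19 to 12.8). Nos2 was at 4.26 CPM in the villus tip-like cluster and at 0.100 CPM in cluster 0. The regenerative-like cluster held 8, 37, 151 and 257 cells at 0, 6, 15 and 24 h, and the enterocyte-like cluster 28, 37, 178 and 486 cells, so that library and cluster overlap in part.

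The course of Otc differed between the stem-like and proliferating-like clusters and cluster 0, which held cells of all 4 times. Other clusters with cells of all 4 times, among them the enterocyte-like and villus tip-like ones, are not described by time. In the stem-like cluster Otc read 78.4, 66.0, 29.1 and 8.17 CPM at 0, 6, 15 and 24 h, and in the proliferating-like cluster 115, 98.2, 47.2 and 14.2 CPM. In cluster 0 it read 184, 186, 158 and 148 CPM, with 44 cells at 24 h. Arg2 read 90.1, 63.4, 25.2 and 10.2 CPM in the proliferating-like cluster, whereas cluster 0 held 691, 856, 676 and 649 CPM. Cps1 in the stem-like cluster stood at 908, 1247, 1344 and 671 CPM, above the 0 h level at 6 and 15 h as in the whole library. Clu, the marker of the regenerative state, ran from 37.1 to 1315 CPM in the stem-like cluster between 0 and 24 h. Its part in these levels was not tested.

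In sorted Ki67-RFP+ crypt cells, 4 of the 7 genes above 10 CPM were at least 2-fold lower in both libraries taken after irradiation and 1 was at least 2-fold higher, where 5.24% and 10.4% of 9266 genes were. Arg2 read 352 CPM without irradiation and 1.89 CPM (1.24 to 2.77) and 7.05 CPM (5.64 to 8.69) after it. Otc read 250.01, 41.0 and 42.9 CPM in the same order, Oat 1338, 269 and 277 CPM, and Cps1 1169, 492 and 455 CPM. The 2 irradiated libraries were close to each other for each of these except Arg2. Ass1 went the other way, at 5.67 CPM without irradiation and 54.6 and 56.6 CPM after it, and it passed 10 CPM through the irradiated libraries alone. Odc1 read 265, 495 and 447 CPM and Asl 28.4, 29.8 and 30.1 CPM. Nos2 had 2 UMIs without irradiation (0.0776 CPM, 0.00940 to 0.280) and 37 and 30 UMIs after it (2.69 and 2.43 CPM). In bulk organoids at day 7 with vehicle, the direction with irradiation was opposite to that in these cells for Arg2, Ass1 and Nos2. Ass1 read 3.10 and 0.634 FPKM there without and with irradiation, and Nos2 10.2 and 3.99 FPKM. Otc was opposite by a small margin (58.8 and 63.1 FPKM). Cps1 and Oat read lower in both sources, and Asl and Odc1 higher. These cells and the organoids differ in source, dose, time and sorting.

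The non-irradiated and irradiated crypt cells fell into almost separate clusters. The stem-like cluster 0 (768 cells) and the enterocyte-like cluster 2 (412 of 413 cells) came from the non-irradiated library, and the regenerative-like cluster 1 (616 cells) from the irradiated ones. Arg2 was at 83.2 CPM in the stem-like and 791 CPM in the enterocyte-like cluster, and at 3.89 CPM in the regenerative-like cluster. Ass1 was at 9.20, 2.33 and 68.2 CPM in the same clusters, and Odc1 at 254, 271 and 414 CPM. In the goblet-like cluster 7, which held cells of each library (69, 38 and 20), Cps1 read 729 CPM without irradiation and 118.5 and 185 CPM after it, and Oat 531, 117 and 146 CPM. The summed enterocyte markers were 4139 CPM in the non-irradiated library and 822 and 2361 CPM in the irradiated ones, and the regenerative markers 1.75, 412 and 529 CPM. Their part in the differences was not tested. Of 37 other pathway genes above 10 CPM, 7 were at least 2-fold higher in both irradiated libraries (among them Aldh4a1, Slc7a6, Ddah1, Gch1, Srm and Smox) and 5 at least 2-fold lower (Nags, Slc7a9, Slc3a1, Pts and Qdpr). Of all 9266 genes, 10.4% were higher and 5.24% lower in this way. Of those higher, Aldh4a1 (0.349 CPM without irradiation, 7.79 and 13.8 CPM after it), Slc7a6, Ddah1 and Smox passed 10 CPM through irradiated libraries alone and so had to differ. Nags, the activator enzyme of Cps1, read 35.5, 8.66 and 8.87 CPM.

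**Figure D5:**
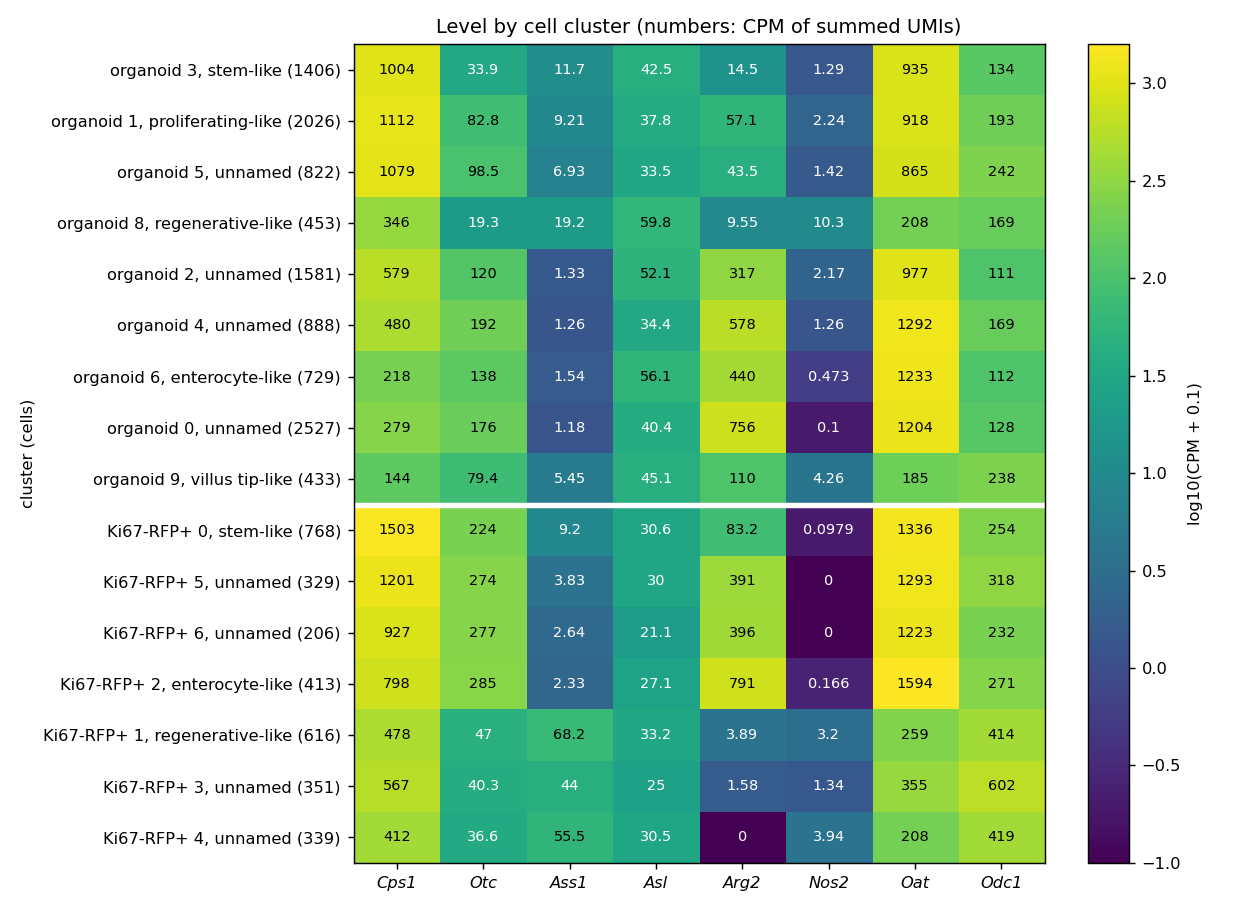
CPM of the 8 genes (columns) in clusters of organoid cells (upper rows) and of Ki67-RFP+ crypt cells (lower rows), with the number of cells in brackets. Colour is log10(CPM + 0.1) and each field prints its CPM. Not all clusters are shown, and organoid cluster 11 and the goblet-like crypt cluster 7 are among those left out. Arg2 reaches 756 CPM in organoid cluster 0 and 791 CPM in the enterocyte-like crypt cluster, and Ass1 stands at 44.0 to 68.2 CPM in the crypt clusters 1, 3 and 4 of irradiated cells.

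The genes whose pattern over the 18 bulk libraries was most like that of each enzyme were ranked by Pearson r of log2(FPKM + 1) over 11465 genes, as a description, since the libraries share groups and tables. Slc2a5 (r 0.99), the fructose transporter of enterocytes, and Rdh7 (0.99) were most like Arg2. Slc2a5 had group means of 13.3 and 2.39 FPKM without irradiation (vehicle and TGFB1), 64.1 and 35.0 FPKM in D7 IR and 22.9 and 10.1 FPKM in D11 IR. For Cps1 they were Bmp2k (0.98) and Tnfsf13 (0.98), and for Oat Chrm3 (0.98) and Ptpn2 (0.98). Ugt1a1 (0.98) was among those most like Otc. Klf4 (0.88), a marker in the villus tip list, and Zxdc (0.84) were most like Nos2. For Odc1 they were Ddx20 (0.95) and Eif2b5 (0.94), for Asl Hist1h1c (0.92) and Arpc4 (0.92), and for Ass1 Sppl2a (0.97) and its copy Gm5424 (0.97). Among the 8 genes, Cps1 and Oat had the highest r with each other (0.88) and Ass1 and Arg2 the lowest (−0.84).

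RefSeq promoter windows were at hand for 4 of the 8 genes, Otc, Ass1, Oat and Odc1. Arg2, Nos2, Asl and Cps1 had no entry. GC content was 44.3% for Otc, 61.7% for Oat, 74.0% for Ass1 and 78.0% for Odc1, beside a median of 52.7% over all windows. Both strands were searched for 7 motifs, none contained in another. The AP-1 motif TGACTCA occurred in 5.20% of all windows. The SMAD palindrome GTCTAGAC occurred in 0.213% and the HNF4 motif CAAAGTCCA in 0.475%. For the GATA motif AGATAA the share was 11.2%. For the TATA box TATAAA it was 13.6%. The shares of the TEAD motif and the E-box stand with the promoters above. The matches were the E-box of Ass1 and the TEAD motif of Oat marked above, and these are letters in the windows only.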

How the data were processed

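Bulk RNA values were deposited by the authors as FPKM, in 3 tables of 23951 genes (6 libraries each, scaled separately). The authors deposited expected counts for the single cells, with fractions where a UMI is shared between genes. Per the submitters' processing notes, TopHat2 2.1.0, Cuffnorm 2.2.1, STAR 2.7.10a and Salmon 1.4 were among the tools, and mm9, GRCm39 and mm39 among the builds, with no role given. The sources used here do not say which build each file has, and the ATAC peaks were not analysed here.

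Each table was fitted by limma 3.58.1 (R 4.3.3, limma-trend, robust empirical Bayes, two-sided) to log2(FPKM + 1) of genes averaging 1 FPKM or more, Benjamini-Hochberg adjusted over all of them. Differences between conditions are interaction terms over 12 libraries. On simulated data with 200 changed genes, 96 to 100% of 2-fold changes were recovered. The changed genes were drawn from the more abundant ones, so this does not cover low genes such as Ass1 and Arg1. Members and gene lists were chosen with earlier results of these data known. Other pathway genes named are those called with a log2 change of at least 1, at most 12 per table, plus Arg1, Slc7a1, Slc7a2, Slc7a7, Gch1, Aldh18a1, Oaz1, Azin1, Sat1, Srm and Sms. Slc25a13, Slc7a6, Slc7a9, Got2, Pts, Qdpr, Gls2, Oaz2 and Gchfr were named after their values were seen, to spell out small counts. Slc7a3 and Gatm were also named after their values were seen, for how they passed the filter.

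Cells needed 500 UMIs, 250 genes and a mitochondrial share up to 20%, and no doublet caller was run. Barcodes shared between libraries numbered 1 (15 and 24 h) and 1 (24 h and irradiated crypt replicate 2). Clusters came from scanpy 1.11.5 and leidenalg 0.10.2 (2000 variable genes, 30 components, 15 neighbours, resolution 0.6). A cluster took the name of the list with the highest median fold if this was at least 2, if at least 3 markers were detected, and if its 10 leading genes held 1 or more of its markers and no more of another list, a rule set after the data were seen. Names may differ from the authors' cell types.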

Additional observations from a re-analysis of the deposited data

Results flagged for a closer look

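Among the 8 genes, TGFB1 moved Nos2 and Odc1 in opposite directions in different conditions, in every library of each. The log2 change of Nos2 was larger by 3.15 in D7 IR than in D7 non-IR, and the difference of D11 IR from D7 IR was −2.63. The change of Odc1 was larger by 1.03 in D11 IR than in D7 IR. No p is given for these differences, which were not tested on data other than those the genes were chosen on.

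For other pathway genes the difference itself was tested (limma interaction term, adjusted over all genes), and those of at least 1 on the log2 scale stood out. Between D7 IR and D7 non-IR these were Ddah2 (1.47), Sat1 (1.22), Slc3a1 (1.06), Srm (−1.56) and Gls2 (−1.02). Their limma adjusted p was at most 2.61e-07, except for Gls2 (0.000277). Between D11 IR and D7 IR, Srm (2.23), Aldh4a1 (1.68) and Ddah1 (1.02) had a larger change at day 11. Ddah2 (−2.71), Gamt (−2.38), Glul (−1.79), Gch1 (−1.64), Oaz2 (−1.44), Agmat (−1.34), Sat1 (−1.32), Aldh18a1 (−1.26), Gchfr (−1.26) and Smox (−1.15) had a lower one. By limma, Gchfr had the largest adjusted p of the latter (6.66e-05). Amd2, a near-identical copy of Amd1, is left out. Both families of differences share the D7 IR libraries.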

How the results depend on the processing

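The numbers of other pathway genes called (TGFB1 against vehicle: 33 without irradiation, 34 in D7 IR and 29 in D11 IR, and 32 and 34 in the differences by irradiation and by day) stayed within 1.5 times under each alternative run. These were a pseudocount of 0.1, no filter on low values, quantile normalization, median-ratio scaling, all 18 libraries in 1 fit, a replicate block and leaving out each library. Leaving out a library gave 31 to 33, 33 to 35, 25 to 31, 29 to 32 and 32 to 34 genes. With the replicate block the counts were 33, 35, 29, 29 and 34. The deviations of same-numbered libraries from their group means had r from −0.09 to 0.21. With 3 libraries per group, this cannot settle whether the numbers pair them. The difference of Oaz1 by irradiation (−0.20, limma adjusted p 0.0413) lost its call under the block (0.0520), and its limma adjusted p rose to at most 0.145 over the other alternatives, with the cause not tested.

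No change of the 8 genes that was called turned its sign. Of 579 values under the alternatives, 25 moved by more than their spread, 13 of them with a pseudocount of 0.1. Single-cell CPM moved beyond their counting interval in 44 of 56 values with whole-number entries only and in 29 with a mean over cells. Peak windows at the genes (2 widths, 2 score limits and 2 overlaps) were not run, because the largest peak end on chromosome 1 (197175936) lies past the last gene of the annotation at hand (195291439, GRCm38.p6). Read depth is unknown in bulk, which limits statements on Ass1, and 2 UMIs of Nos2 in non-irradiated crypt cells limit its level there.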
